A study of Homo sapiens with 12 samples.

Results

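The genes described here are 10 enzymes of fatty acid and triglyceride synthesis, FASN, ACACA, ACLY, SCD, ELOVL6, FADS1, FADS2, GPAM, ACSS2 and ME1. They were taken by name, through the Ensembl identifiers that GENCODE 29 gives these symbols, and are 10 of the 59191 features in the expression table. All 10 were found and all 10 reached the level required for testing. RNA was sequenced from huh7, a widely used cell line from a human liver cancer (hepatocellular carcinoma). The 12 libraries form 4 groups of 3. The control cells carry DMSO, a solvent, in their sample names. The other groups were given disulfiram, thalidomide, or both drugs together (the combination). Disulfiram is an aldehyde dehydrogenase inhibitor used against alcohol dependence, and thalidomide is a ligand of the ubiquitin ligase receptor cereblon. The sources used here give neither drug doses with their units nor the time of treatment, and nothing says that the replicates were separate cultures.

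Cells make fatty acids in the cytosol from acetyl-CoA. ACLY releases acetyl-CoA from citrate, ACSS2 makes it from acetate, ACACA carboxylates it to malonyl-CoA, and FASN builds palmitate from both with NADPH, part of which ME1 supplies. ELOVL6 lengthens palmitate, SCD places the first double bond, FADS1 and FADS2 add double bonds to polyunsaturated chains, and GPAM joins an acyl chain to glycerol 3-phosphate at the first step of triglyceride and phospholipid assembly. In liver cells many of these genes are known targets of the transcription factors SREBP-1c and SREBP-2 (genes SREBF1 and SREBF2) and ChREBP (gene MLXIPL), which respond to insulin, sterols and glucose.

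Promoter stretches are shown for SCD and ACLY, which were lower wherever disulfiram was present, and for MID1IP1, the gene outside the 10 whose levels followed theirs most closely. MID1IP1 encodes a protein that promotes the polymerization and activity of acetyl-CoA carboxylase. Capitals mark matches to CCAAT and GGGCGG on either strand and to TCACNCCAC, the sterol regulatory element. The sequences come from RefSeq windows that run from 250 bases before to 50 after a transcript start on GRCh38.p14, printed 5′ to 3′ in the gene's direction, less any base that GENCODE 29 places in an exon.
SCD, chr10:100346983-100347123, plus strand: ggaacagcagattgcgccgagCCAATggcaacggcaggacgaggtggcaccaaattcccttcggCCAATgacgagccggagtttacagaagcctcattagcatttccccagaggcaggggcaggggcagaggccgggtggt
ACLY, chr17:41919023-41919272, minus strand: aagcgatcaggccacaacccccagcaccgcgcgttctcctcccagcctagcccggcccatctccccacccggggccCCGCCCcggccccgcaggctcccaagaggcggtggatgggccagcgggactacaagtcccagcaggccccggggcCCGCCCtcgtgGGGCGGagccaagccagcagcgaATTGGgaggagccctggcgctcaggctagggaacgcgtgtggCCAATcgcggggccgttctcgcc
MID1IP1, chrX:38801209-38801431, plus strand: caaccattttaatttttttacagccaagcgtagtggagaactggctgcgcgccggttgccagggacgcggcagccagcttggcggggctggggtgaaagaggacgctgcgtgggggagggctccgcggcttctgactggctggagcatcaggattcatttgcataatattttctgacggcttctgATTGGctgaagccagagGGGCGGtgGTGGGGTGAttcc
The SCD stretch holds 2 CCAAT matches in capitals. In ACLY the capitals mark 2 CCAAT and 3 GGGCGG matches, and in MID1IP1 they mark 1 match to each of the 3 motifs. RefSeq windows were at hand for 9 of the 10 enzymes, all except FASN, with 14 windows in all. None of the 9 held TCACNCCAC, which 1.128% of all 35116 windows hold, and none held CACGTG (an E-box), which 7.256% hold. CCAAT was present for 6 of the 9, against 34.614% of all windows, and GGGCGG for 9 of the 9, against 44.954%. Several enzymes have more than 1 window, so these counts and shares are not on the same footing. The SREBF2 window also holds TCACNCCAC. A match is a run of letters and not a measured binding site, and no binding was measured here.

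Expression is given as TPM, a relative transcript abundance in which a gene's reads are divided by transcript length and scaled to the same total in each library, so levels of different genes can be set side by side. Read depth, strand and the way the libraries were made are not known from the sources used here. The number of genes that reached 1 TPM was 13693 in the lowest and 15038 in the highest library. Levels below are mean TPM ± SD and differences are log2 fold changes of TPM + 1 ± SE, with 3 libraries in each group. Differences were tested with limma on 15352 genes, and "rose" or "fell" is used where the Benjamini-Hochberg adjusted p was below 0.05. Since replicates are not stated to be separate cultures, the p-values measure the spread between these libraries, which may be technical. In these bulk samples, fewer cells of a type and less RNA per cell cannot be told apart.

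Disulfiram was followed by lower transcript levels of most of the 10 enzymes, both when it was given alone and when it was added to thalidomide. With disulfiram against control, 8 of the 10 fell, 0 rose and 2, ELOVL6 and ACSS2, did not pass the test. The median difference over the 10 was -0.83, while the median over all genes tested was 0.09. Among all genes tested, 13.2% passed the threshold in this comparison, 4.52% lower (694 genes) and 8.73% higher (1340 genes). For the same 8 enzymes every disulfiram library lay below every control library, which was true of 11.4% of all genes, while 21.5% had every disulfiram library above. The combination against thalidomide shares no library with the first comparison, but both tests take their spread from 1 fit of all 12 libraries. In this second comparison 7 of the 10 fell and 0 rose, with a median of -0.68 against 0.22 over all genes. The shares of all genes past the threshold were 32.2% in all, 7.24% lower (1112 genes) and 25% higher (3834 genes). The 7 enzymes that fell also had no overlap between the libraries, all combination libraries being lower, as 10.8% of all genes had, and 33.9% had all of them higher.

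The balance of rises and falls over all genes depended on scaling, while the enzymes that fell kept their calls under it and others gained one. After median-of-ratios scaling of the libraries, the genes past the threshold were 793 higher and 946 lower with disulfiram against control, and 1875 higher and 2185 lower with the combination against thalidomide. That scaling moved the median of all genes from 0.09 to 0.01 in the first comparison and from 0.22 to 0.03 in the second. Under it 8 enzymes fell in each, ACSS2 being added in the second, with medians over the 10 of -0.93 and -0.90.

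**Figure D1:**
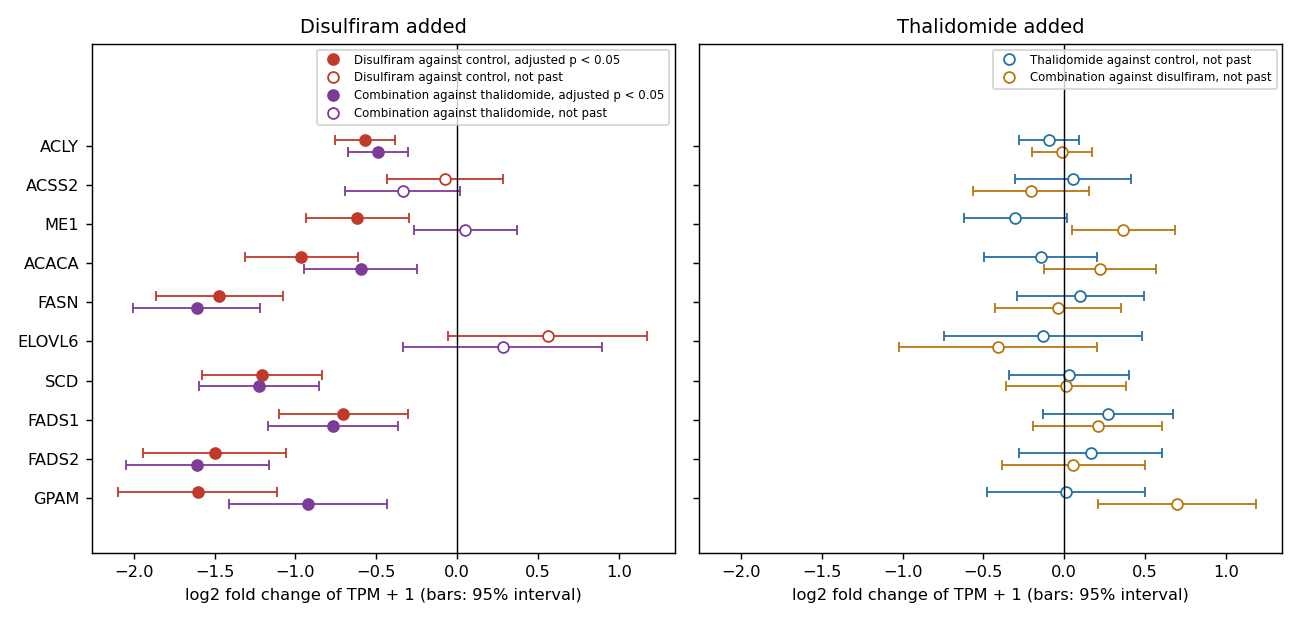
Log2 fold change of TPM + 1 for each enzyme (points, with 95% intervals as bars), for disulfiram added to control or to thalidomide (left) and thalidomide added to control or to disulfiram (right). Filled points have an adjusted p below 0.05. On the left 8 and 7 points are filled and all of those lie below 0, and on the right none is filled.

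Of the enzymes that supply acetyl-CoA and NADPH, ACLY fell in both comparisons, ME1 fell with disulfiram against control, and ACSS2 passed neither test. ACLY, ATP citrate lyase (chr17:41866908-41930542, minus strand), stood at 122.94, 107.07 and 110.39 TPM in the 3 control libraries and at 71.01, 83.17 and 74.46 TPM with disulfiram. Its thalidomide libraries read 105.76, 107.50 and 105.06 TPM and its combination libraries 70.50, 81.60 and 74.26 TPM. All 6 libraries with disulfiram were thus below all 6 without it. How many of all genes split in this way was not counted, here or for the genes below. The difference was -0.57 ± 0.09 with disulfiram against control (adjusted p = 0.00167) and -0.49 ± 0.09 with the combination against thalidomide (adjusted p = 0.00261), the smallest of the changes that passed in either comparison. An antisense gene, AC125257.2, shares 156 of the 5217 exonic bases of ACLY and was listed at 0 to 156.84 TPM, so some reads could belong to either gene if strand was not used.

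ACSS2, the acetyl-CoA synthetase of cytosol and nucleus (chr20:34872146-34927962, plus strand), read 58.23, 52.47 and 46.22 TPM in control and 51.38, 45.45 and 51.39 TPM with disulfiram. Its libraries overlapped in every group. It read 53.56, 65.41 and 45.20 TPM with thalidomide and 34.03, 53.24 and 42.72 TPM with the combination. The difference with disulfiram against control was -0.08 ± 0.16, with a 95% interval from -0.43 to 0.28 (adjusted p = 0.812), and with the combination against thalidomide it was -0.34 ± 0.16 (adjusted p = 0.130). The latter passed without the second combination library (-0.49, adjusted p = 0.0306) and after median-of-ratios scaling (-0.56, adjusted p = 0.0347).

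ME1, the cytosolic malic enzyme (chr6:83210389-83431071, minus strand), read 26.35, 33.57 and 34.33 TPM in control and 22.84, 16.69 and 20.96 TPM with disulfiram. Those groups did not overlap, and ME1 fell by 0.62 ± 0.15 on the log2 scale (adjusted p = 0.0174). The call was lost without the second control library (adjusted p = 0.0619), the third control library (0.0668) or the second disulfiram library (0.0507). With thalidomide ME1 read 23.43, 24.35 and 27.75 TPM and with the combination 28.94, 22.05 and 27.75 TPM, groups that overlapped. The difference between those groups was 0.05 ± 0.15 (adjusted p = 0.802), which turned to -0.17 after median-of-ratios scaling, -0.13 after quantile normalization, -0.22 after GC correction and -0.02 without the first combination library.

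ACACA and FASN, the enzymes that carry acetyl-CoA to palmitate, fell in both comparisons. ACACA, acetyl-CoA carboxylase 1 (chr17:37084988-37406818, minus strand), read 30.46, 29.47 and 28.26 TPM in control and 11.90, 20.27 and 12.82 TPM with disulfiram. The second disulfiram library stood above the other two and still below every control library. ACACA fell by 0.96 ± 0.16 (adjusted p = 0.00277). Its thalidomide libraries read 27.20, 25.54 and 26.65 TPM, all just under the control range, and its combination libraries read 15.76, 19.32 and 16.56 TPM. The difference with the combination against thalidomide was -0.60 ± 0.16 (adjusted p = 0.0173). That fall lost its call without the first thalidomide library (adjusted p = 0.0572), the first combination library (0.0671) or the third combination library (0.0613).

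FASN, fatty acid synthase (chr17:82078333-82098332, minus strand), read 310.84, 236.58 and 208.08 TPM in control and 74.85, 108.07 and 86.80 TPM with disulfiram. Thalidomide libraries read 272.69, 314.99 and 219.39 TPM, overlapping the controls, with the second above all of them. Combination libraries read 76.93, 100.17 and 84.06 TPM, in the range of disulfiram alone. FASN fell by 1.47 ± 0.18 with disulfiram against control (adjusted p = 0.000482) and by 1.61 ± 0.18 with the combination against thalidomide (adjusted p = 0.00022). Per library, the ratio of FASN to ACACA TPM averaged 8.53 ± 1.49 in control, 6.13 ± 0.733 with disulfiram, 10.2 ± 2.06 with thalidomide and 5.05 ± 0.154 with the combination. Every library with disulfiram had a lower ratio than every library without it. This ratio was formed after the values of both genes were known and was not tested. FASN and ACACA differ in GC content (65.3% and 48.7%), and the part of GC content in the ratio was not tested.

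**Figure D2:**
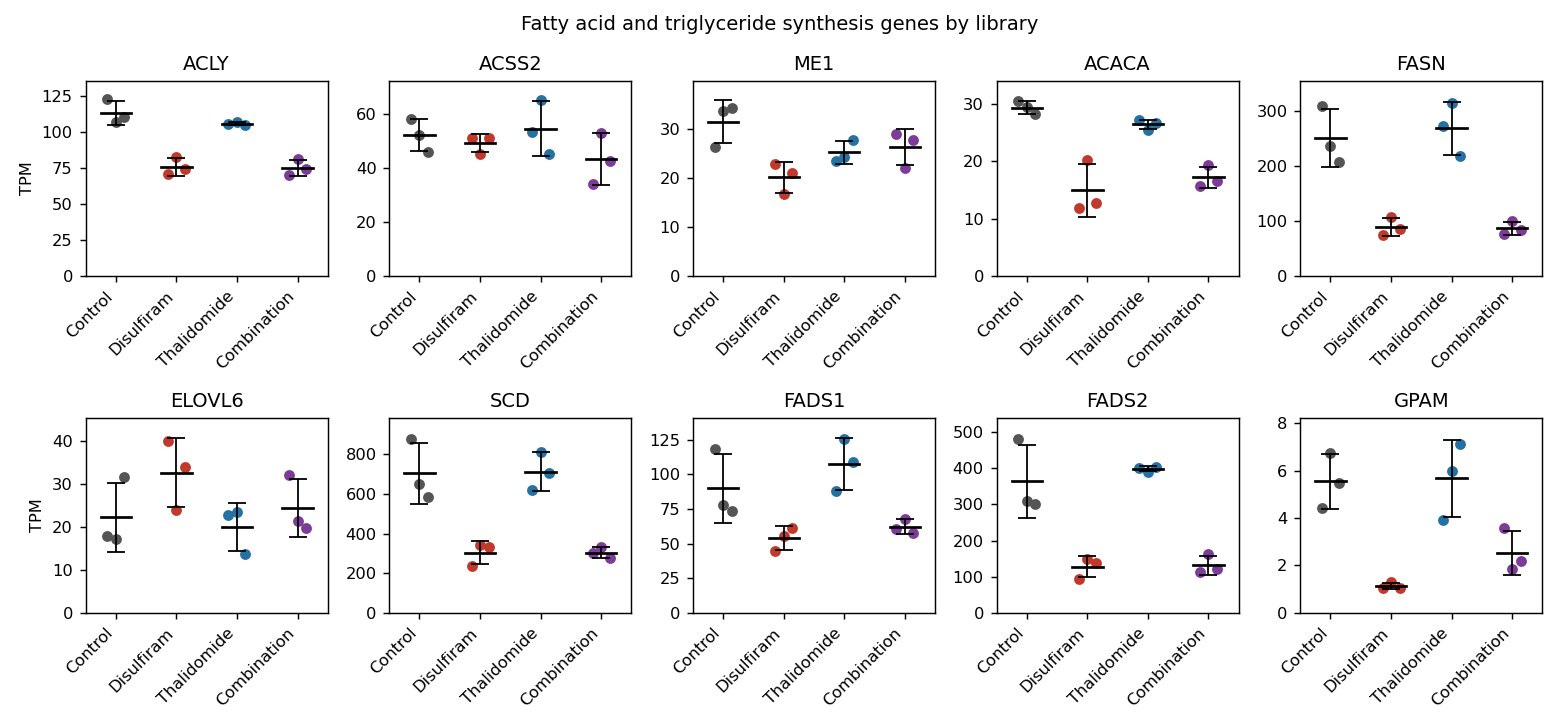
TPM of each enzyme (vertical axes, from 0) in each library (points, 3 per group), with the group mean as a line and the SD as bars. For FASN, SCD, FADS1, FADS2, ACACA, ACLY and GPAM all 6 libraries with disulfiram lie below all 6 without it, while those of ELOVL6 and ACSS2 overlap. The share of all genes with such a split was not counted.

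ELOVL6 was the 1 enzyme with a positive difference in both comparisons, and it passed neither test. ELOVL6, which elongates palmitate to stearate (chr4:110045846-110199199, minus strand), read 17.89, 17.18 and 31.54 TPM in control and 39.94, 24.00 and 33.99 TPM with disulfiram. The third control library was far above the other two and inside the disulfiram range. The difference was 0.56 ± 0.28, with an interval from -0.05 to 1.17 (adjusted p = 0.221). Thalidomide libraries read 22.78, 23.56 and 13.61 TPM and combination libraries 32.05, 21.39 and 19.72 TPM, again overlapping, with a difference of 0.28 ± 0.28 (adjusted p = 0.451).

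SCD, stearoyl-CoA desaturase (chr10:100347124-100364834, plus strand), had the highest level of the 10 enzymes in every group and fell in both comparisons. Control libraries read 879.67, 649.24 and 586.61 TPM and disulfiram libraries 235.96, 343.20 and 332.85 TPM. Thalidomide libraries read 620.11, 812.95 and 706.69 TPM and combination libraries 302.50, 331.17 and 276.75 TPM. The highest library with disulfiram thus lay well under the lowest without it. The differences were -1.21 ± 0.17 with disulfiram against control (adjusted p = 0.00113) and -1.23 ± 0.17 with the combination against thalidomide (adjusted p = 0.00078). SCDP1, a pseudogene of SCD, was listed at 0 to 0.05 TPM.

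The front-end desaturases both fell in both comparisons, FADS2 more than FADS1. FADS2 (delta-6 desaturase, chr11:61792980-61867354, plus strand) read 480.57, 310.68 and 301.63 TPM in control and 94.29, 150.38 and 138.70 TPM with disulfiram, a fall by 1.5 ± 0.20 (adjusted p = 0.000907). With thalidomide it read 402.17, 390.72 and 403.82 TPM and with the combination 113.46, 161.91 and 120.37 TPM, a fall by 1.61 ± 0.20 (adjusted p = 0.000447). All 6 libraries with disulfiram were below all 6 without it. FADS1 (delta-5 desaturase, chr11:61799625-61829318, minus strand) read 118.44, 78.26 and 73.30 TPM in control and 45, 55.54 and 61.67 TPM with disulfiram, a fall by 0.70 ± 0.18 (adjusted p = 0.0268). That call was lost without the first control library (-0.49, adjusted p = 0.0909), without the first disulfiram library (-0.58, 0.0997), with no filter on low values (0.0748) and with only these 2 groups in the fit (0.064). In thalidomide libraries FADS1 read 87.83, 125.69 and 109.00 TPM and in combination libraries 60.64, 68.12 and 57.71 TPM, a fall by 0.77 ± 0.18 (adjusted p = 0.011).

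Per library, the ratio of FADS2 to FADS1 TPM was 4.05 ± 0.073 in control, 2.35 ± 0.319 with disulfiram, 3.80 ± 0.74 with thalidomide and 2.11 ± 0.254 with the combination. The highest ratio with disulfiram was 2.71 and the lowest without it was 3.11, so these sets of 6 libraries did not overlap. The ratio was formed after the values of both genes were known and was not tested. The 2 genes lie on opposite strands and share 490 exonic bases, 4.79% of those of FADS1 and 4.444% of those of FADS2, and the part of shared reads in either value was not tested. FADS2 also shares 49 bases with FEN1 on the same strand.

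GPAM, the mitochondrial glycerol-3-phosphate acyltransferase (chr10:112149864-112215377, minus strand), had the lowest level of the 10 and fell in both comparisons. It read 4.42, 6.73 and 5.50 TPM in control and 1.04, 1.3 and 1.06 TPM with disulfiram. The disulfiram libraries lay close together, near the minimum of 1 TPM used for testing. The fall was 1.61 ± 0.22 on the log2(TPM + 1) scale (a difference of -1.61, adjusted p = 0.00108), a scale that understates changes at such low levels. With thalidomide GPAM read 3.90, 6 and 7.12 TPM and with the combination 3.57, 1.84 and 2.17 TPM, a difference of -0.92 ± 0.22 (adjusted p = 0.012). The first combination library was near the lowest thalidomide library and did not overlap it.

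Set against control, the combination was followed by lower levels of most of the enzymes. This comparison uses the same control libraries as those of the single drugs, so it is no independent check of them. Here 6 of the 10 fell and 0 rose, with a median of -0.66 against 0.20 over all genes, and 7 had every combination library below every control library. Over all genes tested 25.1% passed the threshold, 6.7% lower (1029 genes) and 18.4% higher (2823 genes), and after median-of-ratios scaling these were 1420 higher and 1824 lower with a median of 0.04. Without overlap, 12.1% of all genes were lower and 33.9% higher. The falls were 1.51 for FASN (adjusted p = 0.000456), 1.44 for FADS2 (0.00134), 1.20 for SCD (0.00137), 0.91 for GPAM (0.0155), 0.74 for ACACA (0.00853) and 0.58 for ACLY (0.00156), each written as the size of a negative log2 fold change. GPAM lost its call without the second control library (adjusted p = 0.0524) or the third combination library (0.0631). FADS1, whose libraries did not overlap, had a difference of -0.50 ± 0.18 that missed the threshold (adjusted p = 0.0658) and passed after median-of-ratios scaling (-0.69, adjusted p = 0.0231). ME1 had a difference of -0.25 ± 0.15 (adjusted p = 0.210) that passed after median-of-ratios scaling (-0.44, 0.0307), quantile normalization (-0.39, 0.0468) or GC correction (-0.48, 0.00371). ACSS2 had a difference of -0.28 (adjusted p = 0.206) and ELOVL6 one of 0.15 (adjusted p = 0.701), which turned to -0.03 after median-of-ratios scaling.

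Thalidomide gave no call among the enzymes, alone or on top of disulfiram. With thalidomide against control 0 of the 10 passed, 0 did so at an unadjusted p below 0.05, and the differences ran from -0.30 for ME1 to 0.27 for FADS1, with 95% intervals that stayed between -0.74 and 0.67. Limma called 0 of all genes in this comparison (0%), while 873 had an unadjusted p below 0.05. ACACA was the 1 enzyme whose thalidomide libraries all lay below the controls, as 6.32% of all genes did, and 3.91% lay all above. With the combination against disulfiram 0 of the 10 passed, the differences ran from -0.41 for ELOVL6 to 0.70 for GPAM, and limma called 1 of all genes (0.00651%), with 2631 at an unadjusted p below 0.05. The 2 enzymes at an unadjusted p below 0.05 were GPAM, with 0.70 ± 0.22 (interval 0.21 to 1.19, adjusted p = 0.260), and ME1, with 0.37 ± 0.15 (interval 0.05 to 0.69, adjusted p = 0.269). GPAM was also the 1 enzyme with all combination libraries above all disulfiram libraries, at 1.84 to 3.57 TPM against 1.04 to 1.3 TPM, as 9.69% of all genes were, and 6.54% were all below.

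The interaction term asks whether disulfiram changed a gene by a different amount with thalidomide present. It called 0 of the 10 enzymes and 0% of all genes, with 1580 genes at an unadjusted p below 0.05, among them 1 of the enzymes. That enzyme was ME1, with 0.67 ± 0.21 (unadjusted p = 0.0074 and adjusted p = 0.466 by limma), and GPAM had 0.69 ± 0.32 (adjusted p = 0.466). The interval was narrowest for ACLY, from -0.18 to 0.34, and the outermost limits were -1.15 for ELOVL6 and 1.38 for GPAM.

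The order of levels among the enzymes changed little between groups. In control cells SCD was highest at 705 ± 154 TPM, followed by FADS2 at 364 ± 101 and FASN at 252 ± 53.1, whose ranges overlapped. ACLY at 113 ± 8.37 and FADS1 at 90.0 ± 24.8 overlapped each other and stood above ACSS2 at 52.3 ± 6.01. ME1 at 31.4 ± 4.40, ACACA at 29.4 ± 1.10 and ELOVL6 at 22.2 ± 8.09 overlapped their neighbours, and GPAM at 5.55 ± 1.16 stood apart as the lowest. With disulfiram the first places were held by the same genes at lower levels, SCD at 304 ± 59.2, FADS2 at 128 ± 29.6 and FASN at 89.9 ± 16.8 TPM. ELOVL6 at 32.6 ± 8.06 then stood above ME1 at 20.2 ± 3.15 and ACACA at 15 ± 4.59, with no overlap between ELOVL6 and ME1, and GPAM was lowest at 1.13 ± 0.145 TPM.

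Summed, the 10 enzymes made up 1666 ± 336 TPM in control, 770 ± 107 with disulfiram, 1727 ± 149 with thalidomide and 774 ± 75.8 with the combination. The summed level lay between 648 and 861 TPM in the libraries with disulfiram and between 1426 and 2050 TPM in those without. Without SCD, the most abundant, the sums were 960 ± 182, 466 ± 48.2, 1014 ± 64.3 and 470 ± 51.6 TPM. The first control library was highest of its group for FASN, ACACA, ACLY, SCD, FADS1, FADS2 and ACSS2, and it alone brought the control sum to 2050 TPM, the other sums being 1521 and 1426 TPM. With it left out, 7 enzymes still fell with disulfiram against control.

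GC content moved with the libraries, and the values are given because the enzymes span a wide range of it. Over 15042 genes, the rank correlation between GC content and a library's deviation from its group mean was 0.60 in the second disulfiram library and 0.66 in the second combination library, between -0.59 and 0.48 in the other treated libraries, and between -0.18 and 0.13 in controls. The GC content of the longest transcript was 65.3% for FASN, 58.6% for FADS2, 54.6% for ACSS2, 52.2% for ACLY, 50.1% for FADS1, 48.7% for ACACA, 47.1% for SCD, 41.2% for ELOVL6, 41.0% for GPAM and 39.5% for ME1. In the second combination library the first 7 of these were above their group mean and the last 3 below it. The second disulfiram library did not divide them in that way, with ACSS2 at -0.12 and GPAM at 0.11 from their group means. Over all genes the rank correlation of the log2 fold change with GC content was 0.001 with disulfiram against control, -0.49 with the combination against thalidomide and -0.44 with the combination against control. After removal of the GC trend from each library, 8, 7 and 7 of the enzymes fell in these comparisons. With the second library of disulfiram and that of the combination both left out, 8, 8 and 6 fell. The correlation of fold change with GC content over all genes was 0.20 with thalidomide against control and -0.63 with the combination against disulfiram. For the interaction it was -0.62. GPAM and ME1, the enzymes of lowest GC content, had differences of 0.70 and 0.37 with the combination against disulfiram. Their interaction values were 0.69 and 0.67. ELOVL6, the next lowest, went the other way, with -0.41 and -0.28. The part of the GC trend in these values was not tested.

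**Figure D3:**
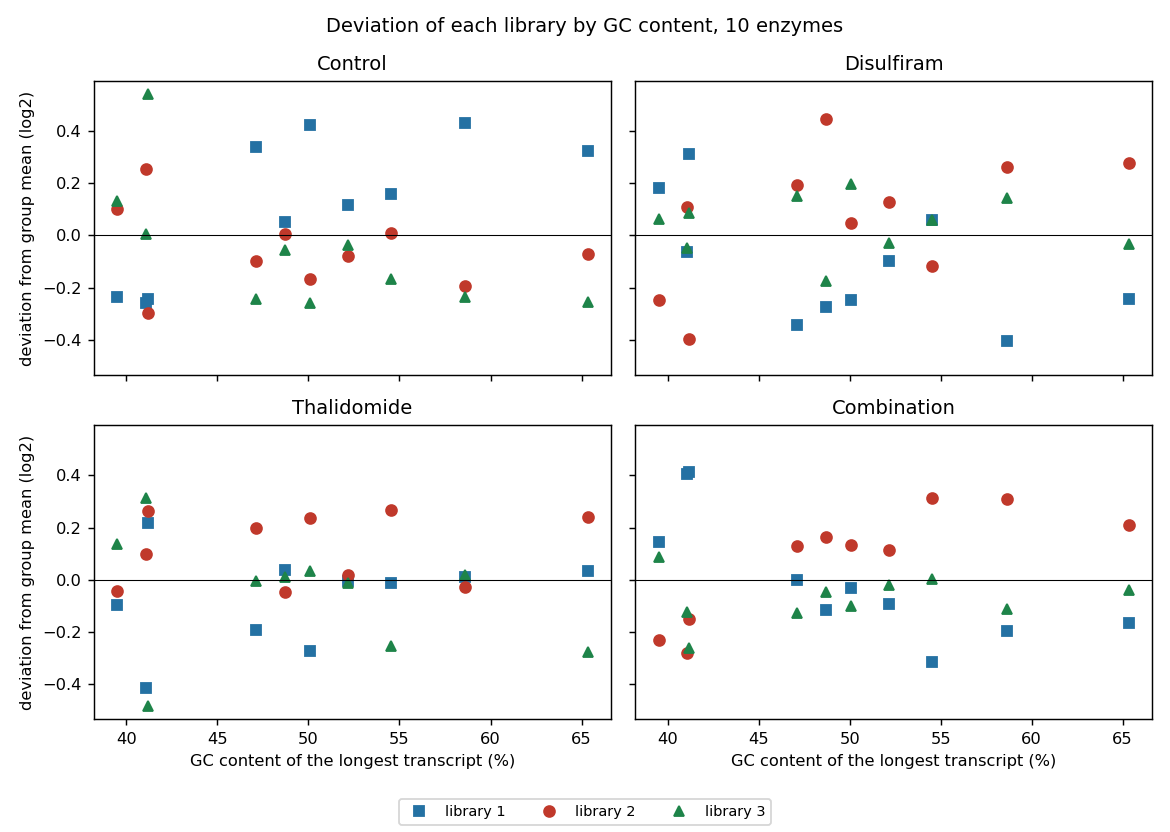
Deviation of each enzyme's log2(TPM + 1) from its group mean (vertical axis) by GC content of the longest transcript in percent (horizontal axis), with a panel per group and a symbol per library. In the second combination library the 3 enzymes of lowest GC content lie below 0 and the other 7 above.

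Hepatocyte markers were present, as the label of the cell line has it. All 10 were expressed, with ALB at 586 to 1472 TPM, and their summed level was 4339 to 6879 TPM in control, 4104 to 4157 with disulfiram, 5517 to 7668 with thalidomide and 3699 to 4828 with the combination. Of these 10 markers 2 fell with disulfiram against control and 7 with the combination against thalidomide, with medians of -0.62 and -0.86. Of 15 markers of other cell types 8 could be tested, and 3 rose in both comparisons, CD68, LYZ and PECAM1. CD14, a monocyte marker, had a difference of -0.73 (adjusted p = 0.0928) with disulfiram against control and fell by 0.82 (adjusted p = 0.0367) with the combination against thalidomide. In the latter comparison 2 of these markers rose and 2 fell after median-of-ratios scaling, and 1 rose and 1 fell after quantile normalization. CD68 stood at 5.08 to 13.78 TPM in control and 66.55 to 68.80 TPM with disulfiram. The leukocyte and T cell markers PTPRC and CD3E, the endothelial markers VWF and CDH5 and the fibroblast marker DCN were at 0 to 0.59 TPM in all libraries. CD79A, a B cell marker, was at 0.09 to 0.70 TPM. The fibroblast and stellate markers ACTA2, PDGFRB and COL1A1 were at 0.08 to 0.61, 0.41 to 1.41 and 6.45 to 13.86 TPM. The biliary markers KRT19 and EPCAM stood far higher, at 616.62 to 977.02 and 93.12 to 153.16 TPM. The summed level of the 15 was 1107 to 1255 TPM in control, 1088 to 1230 with disulfiram, 1069 to 1231 with thalidomide and 925 to 1093 with the combination. Most of it came from the biliary markers, whose sum was 952 to 1105, 941 to 1016, 884 to 1054 and 763 to 930 TPM in these groups. The endothelial markers summed to 0.79 to 1.55 TPM in control and 3.52 to 7.42 with disulfiram. The leukocyte markers (118.51 to 179.26 and 133.36 to 197.53 TPM) and the fibroblast and stellate markers (8.42 to 13.07 and 8.93 to 13.84 TPM) overlapped between those groups. The part of either marker list in the falls of the enzymes was not tested.

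The other genes of fatty acid supply, chain building and assembly are given by list, as counts past the same threshold, and no list was tested against the 10 enzymes. The shares of all genes to set beside these and the later lists were 4.52% lower and 8.73% higher with disulfiram against control. With the combination against thalidomide they were 7.24% lower and 25% higher. Of 10 further genes of carbon and NADPH supply 9 were tested, and with disulfiram against control 2 fell and 1 rose. PGD, of the pentose phosphate pathway, fell by 0.75, and IDH1, the cytosolic isocitrate dehydrogenase, by 0.66. ME3, a mitochondrial malic enzyme, rose by 0.64 (adjusted p = 0.023), a call lost without any 1 of 4 libraries, the first or the third of control or of disulfiram (adjusted p from 0.0651 to 0.097). The combination against thalidomide gave 2 falls and 1 rise in this list, PGD again falling (-0.73), and IDH1 missing the threshold (-0.23, adjusted p = 0.153) except after median-of-ratios scaling (-0.46, 0.00608) or GC correction (-0.38, 0.00462). The 1 rise was ME3 (0.52, adjusted p = 0.0304), a call lost with no filter on low values (0.0632), after median-of-ratios scaling (0.34, 0.109) or quantile normalization (0.20, 0.326), and without the first or the third thalidomide library or the first or the third combination library (0.0721 to 0.091). After median-of-ratios scaling the list had 0 rises and 4 falls. Of 8 partners of malonyl-CoA and the synthase 6 were tested. MID1IP1 fell by 1.07 (adjusted p = 8.09e-05) and by 1.03 in the 2 comparisons, from 166 ± 12.6 TPM in control to 78.6 ± 8.33 with disulfiram. OXSM, the mitochondrial ketoacyl synthase, rose by 0.70 and 0.86.

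Elongation genes other than ELOVL6 (11 of 12 tested) had 0 calls with disulfiram against control, and with the combination against thalidomide 4 rose and 1 fell. Desaturation partners (5 of 6 tested) had 0 calls in both comparisons. Acyl-CoA synthetases (7 of 9 tested) had 0 calls and then 1 rise. With the combination against thalidomide and median-of-ratios scaling, these 3 lists had 3 rises and 1 fall, 0 rises and 2 falls, and 0 rises and 1 fall. Quantile normalization gave 2 rises and 1 fall, 0 rises and 1 fall, and 0 rises and 1 fall. Medians of these lists with disulfiram against control were 0.00, -0.11 and -0.21, beside 0.09 for all genes. Glycerolipid assembly genes (13 of 17 tested) had 2 falls with disulfiram against control, and 3 falls and 2 rises with the combination against thalidomide. The rises depended on scaling, since the second comparison gave 0 rises and 6 falls after median-of-ratios scaling and 0 rises and 5 falls after quantile normalization. DGAT2, which makes triglyceride from diacylglycerol, fell by 0.57 and 0.77. PNPLA3, a lipid droplet protein with acyl hydrolase and transferase activity, fell by 1.01 and 1.19, the first of these lost without the first control library (adjusted p = 0.0746) or the first disulfiram library (0.0718).

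Lipid droplet and lipolysis genes went the other way in part. Of 12 genes 11 were tested, 5 rose and 0 fell with disulfiram against control, and 4 rose and 0 fell with the combination against thalidomide. Of all genes tested 8.73% and 25% rose in these comparisons. The list median was 0.37 in the first, beside 0.09 over all genes. In the second it was 0.21 beside 0.22, so there the list as a whole lay near all genes. After median-of-ratios scaling 2 rose in each, with 0 and 1 falls, so the count of rises in this list depended on scaling. CIDEC, a lipid droplet fusion protein, stood at 5.43 ± 3.28 TPM in control and 26.7 ± 3.99 with disulfiram, and at 3.18 ± 0.896 TPM with thalidomide and 20.7 ± 4.26 with the combination. It rose by 2.27 ± 0.36 (adjusted p = 0.00213) and 2.38 ± 0.36 (adjusted p = 0.00118). HILPDA, a lipid droplet protein that inhibits lipolysis, rose by 1.03 and 0.83, and PLIN2, a droplet coat protein, rose by 0.67 with disulfiram against control. HILPDA lost its first call without the first or the third control library or the third disulfiram library (adjusted p from 0.0555 to 0.0606), and its second without the first or the third thalidomide library or the first combination library (0.0602 to 0.0771) and after median-of-ratios scaling (0.063). PLIN2 lost its call without the third control library (adjusted p = 0.106), the first or the third disulfiram library (0.0884 and 0.103) and after median-of-ratios scaling (0.054). In the second comparison PLIN2 had a difference of 0.19 (adjusted p = 0.437), -0.04 after median-of-ratios scaling.

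**Figure D4:**
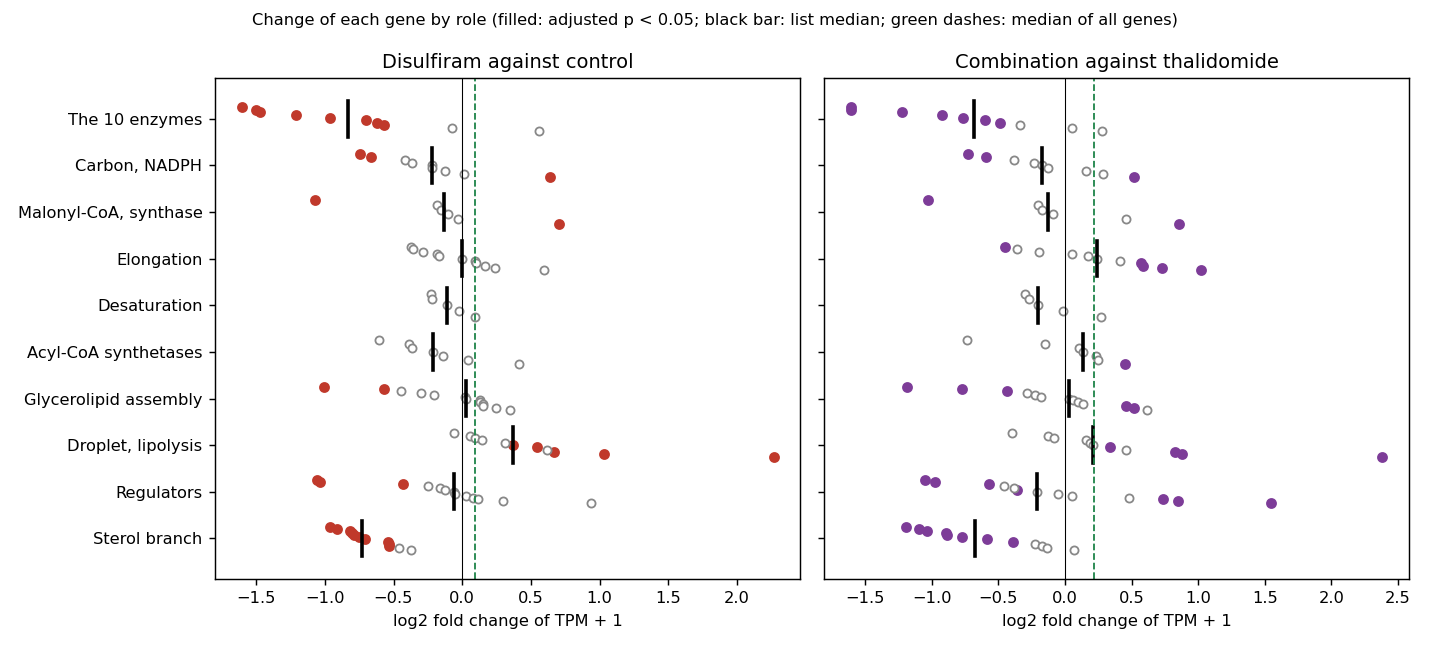
Log2 fold change of TPM + 1 of each tested gene by role, for disulfiram against control (left) and the combination against thalidomide (right), filled where the adjusted p is below 0.05, with the list median as a black bar and the median of all genes as a green dashed line. The medians of the 10 enzymes (-0.83 and -0.68) and of the sterol branch (-0.73 and -0.68) lie left of those of the other lists plotted.

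Among 14 regulators of the pathway 13 were tested, and with disulfiram against control 3 fell and 0 rose. The combination against thalidomide gave 4 falls and 3 rises, which became 8 falls and 2 rises after median-of-ratios scaling and 7 falls and 3 rises after quantile normalization. SREBF1, which encodes the SREBP-1 proteins, stood at 152.59, 162.34 and 162.19 TPM in control, 59.48, 88.64 and 82.35 TPM with disulfiram, 154.92, 168.58 and 156.64 TPM with thalidomide and 72.46, 91.52 and 79.81 TPM with the combination. All 6 libraries with disulfiram were below all 6 without it. SREBF1 fell by 1.06 ± 0.13 (adjusted p = 0.000505) and by 0.97 ± 0.13 (adjusted p = 0.000646). INSIG1, which holds the SREBP precursors in the endoplasmic reticulum and is itself a known SREBP target, fell by 1.04 and 1.05. SREBF2 fell by 0.43 (adjusted p = 0.0405) and 0.57 (adjusted p = 0.00767). The first of these calls was lost with no filter on low values (adjusted p = 0.0891), with only the groups compared in the fit (0.0702) and without any 1 of 7 libraries (adjusted p from 0.0506 to 0.151), namely the first or second control, the first or the third disulfiram, the first thalidomide and the first or the third combination library. MLXIPL, which encodes ChREBP, was at 8.36 ± 1.38 TPM in control and 6.87 ± 0.998 with disulfiram, a difference of -0.25 (adjusted p = 0.396). Between the combination and thalidomide it was -0.46 (adjusted p = 0.063), which passed without the first thalidomide library (-0.64, adjusted p = 0.0293) and after median-of-ratios scaling (-0.66, 0.0137) or quantile normalization (-0.78, 0.00787).

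The sterol branch, whose genes share SREBP control with the fatty acid genes as textbook background, fell as well. All 12 of its genes were tested, 10 fell with disulfiram against control and 8 with the combination against thalidomide, and 0 rose, with medians of -0.73 and -0.68. DHCR7, the last enzyme of cholesterol synthesis by one route, fell by 0.96 and 1.19. FDPS, which makes farnesyl diphosphate, fell from 1039 ± 165 TPM in control to 548 ± 36.2 with disulfiram, by 0.91 on the log2 scale, and by 1.04 in the second comparison. With thalidomide against control, the combination against disulfiram and the interaction, 0 genes of these 9 lists passed.

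The enzymes also differed in how closely they followed their own mean. Each gene's log2(TPM + 1) was standardized over the 12 libraries and the 10 were averaged, and Pearson's r with that mean was 0.98 for FASN, 0.98 for SCD, 0.97 for ACLY, 0.97 for FADS2, 0.91 for ACACA, 0.90 for FADS1 and 0.87 for GPAM. It was 0.54 for ACSS2, 0.49 for ME1 and -0.50 for ELOVL6. Each enzyme is part of the mean, and the libraries fall into 6 with and 6 without disulfiram, so these values describe the pattern and were not tested. Among the other genes with a mean of at least 5 TPM, those with the highest r with the mean included MID1IP1 (0.99, the highest), NID1 (0.98), VPS26B (0.98) and PCYOX1L (0.98). After each group's mean was taken out, r over the 12 libraries was 0.89 for MID1IP1, 0.74 for NID1, 0.59 for VPS26B and 0.61 for PCYOX1L. MID1IP1 thus followed the enzymes also among the libraries of a group, which share depth and base composition with the enzymes measured in them. MID1IP1 was not alone in this, since PGD, named above, had a value of 0.91.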

How the data were processed

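Gene expression in 12 libraries of huh7 cells was deposited as a table of TPM per gene, computed by the authors; per the submitters' processing notes the tools were HISAT2 2.0 and StringTie 1.3.0 on hg38. The sources used here give no annotation, filters or strand handling. The labels class the libraries as single-cell and carry a protocol for dissociated patient tumour tissue, while the deposited table has 1 TPM column per sample of the cell line. TPM keeps no read counts, so depth is unknown and counting error cannot be stated. Values are rounded to 2 decimals. Symbols, positions and GC content came from GENCODE 29, which holds 58611 of the 58884 Ensembl identifiers.

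Log2(TPM + 1) was fitted with limma 3.58.1 (R 4.3.3) with a mean-variance trend, all 12 libraries in 1 fit and two-sided tests, adjusted by Benjamini-Hochberg over the 15352 genes that reached 1 TPM in 3 or more libraries. The threshold was an adjusted p below 0.05. Disulfiram, thalidomide and the combination were compared with control and the combination with either drug, and the interaction was fitted. The fit was tested on simulated data. Other pseudocounts (0.1 and 5), filters (none, or a mean TPM of at least 5), median-of-ratios scaling, quantile normalization, GC correction, fits with only the groups compared, a replicate block and leaving out libraries were tried. Named genes are all 10 enzymes, SREBF1, SREBF2, MLXIPL and INSIG1, up to 3 genes per list with the largest change past the threshold with disulfiram against control, and the 5 genes most like the enzymes' mean, of which a few are not reported here. The members and the lists were chosen with earlier results of these data known.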

Additional observations from a re-analysis of the deposited data

How the results depend on the processing

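The counts of enzymes past the threshold kept their direction and stayed within 1.5 times of the reported values in the settings tried. Leaving out each library in turn gave 7 to 8 enzymes lower with disulfiram against control, 5 to 6 with the combination against control and 6 to 8 with the combination against thalidomide, and 0 in the other comparisons. Other settings gave 7 to 8, 5 to 8 and 6 to 8. With a mean TPM of at least 5 required, GPAM was not tested. The gene results followed through the settings were a part of those given here. Of their values 1456 kept direction and side of the threshold, 51 lost the call, 12 gained one and 10 turned in sign. All values that turned had missed the threshold. These counts include fits without a library of a group not compared, where the difference cannot move and only its adjusted p can. ACSS2 with disulfiram against control was 0.0023 without the first control library, in a range from -0.1612 to 0.0023 when each library was left out. ELOVL6 with the combination against control was -0.0312 after median-of-ratios scaling, -0.0049 after quantile normalization, -0.0353 after GC correction and -0.0538 to 0.4229 when each library was left out, the lowest without the first combination library. ME1 with the combination against thalidomide was -0.1668, -0.1276 and -0.2176 in the same settings and -0.0206 to 0.1681 when each library was left out, and PLIN2 was -0.0385 after median-of-ratios scaling. The cause was not tested. With no filter on low values PNPLA3 and PLIN2 with disulfiram against control and HILPDA with the combination against thalidomide also missed the threshold (adjusted p = 0.0536, 0.0885 and 0.0605), and ME3 did so with only the groups compared (0.0794). HILPDA missed it too after quantile normalization (0.062) and with the second library of disulfiram and that of the combination left out (0.0538).

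Counts over all genes were less stable. With disulfiram against control 2034 genes passed, against 1215, 1350 and 1302 without the first, second or the third control library and 1289 and 1173 without the first or the third disulfiram library. With the combination against control 3852 passed, against 1973 and 2094 without the first or the third control library, 1664 and 1426 without the first or the third combination library, and 5850 with the second library of disulfiram and that of the combination left out. With the combination against thalidomide 4946 passed, against 2405 without the first thalidomide library and 2274 and 2174 without the first or the third combination library. For thalidomide against control 0 passed, and 25 without the first control library, 2 without the third, and 3 with only the groups compared. The combination against disulfiram had 1, and 54 without the second combination library and 0 to 5 in all other settings. The interaction had 0, and up to 3, the latter with no filter.

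Replicate numbers are not stated to mark a shared day. Of 18 pairs of same-numbered libraries 4 had deviations correlated above 0.1 (range -0.15 to 0.37), and no library correlated best with its own number in all 3 other groups, so the numbers were not used for pairing. A fit with the replicate block gave 8, 6 and 7 enzymes lower in the comparisons with disulfiram against control, the combination against control and the combination against thalidomide, and 1786, 3584 and 4632 genes. Depth is unknown, so the precision of low genes such as GPAM cannot be stated beyond the spread of the libraries.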

Other observations

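Some lipid genes outside the 10 enzymes were higher with the combination than with thalidomide, which is the difference made by added disulfiram. With the combination against disulfiram 0 genes of their lists passed. The genes named in these sentences were chosen after their values were seen. With the combination against thalidomide 25% of all genes tested rose and 33.9% had every combination library higher, so such rises were common. ELOVL4, an elongase of very long chains, was higher by 1.02 with the combination against thalidomide (adjusted p = 0.0071) and by 0.74 after GC correction (0.015). INSIG2, which like INSIG1 retains SREBP precursors, was higher by 1.55 (adjusted p = 0.0123) and by 1.17 after GC correction (0.0204), while INSIG1 fell. Its libraries read 3.80, 8.71 and 3.58 TPM with thalidomide and 20.71, 11.44 and 18.72 TPM with the combination, without overlap. LPIN2 and LPIN3, phosphatidic acid phosphatases of triglyceride assembly, were higher by 0.46 and 0.52 (adjusted p = 0.00996 and 0.0273), and by 0.49 and 0.71 after GC correction. Neither passed after median-of-ratios scaling or quantile normalization, under which 0 genes of glycerolipid assembly rose. ABHD5, the activator of adipose triglyceride lipase, was higher by 0.88 (adjusted p = 0.00235), and by 0.56 after GC correction. ABHD5 also rose with disulfiram against control (0.55, adjusted p = 0.034), where ELOVL4, INSIG2, LPIN2 and LPIN3 did not pass.

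The GC correction changed which of these genes passed. ELOVL2 (0.57, adjusted p = 0.027) and ELOVL7 (0.73, adjusted p = 0.0208) passed with the combination against thalidomide, and after the correction they had 0.30 (adjusted p = 0.0867) and 0.38 (adjusted p = 0.0566). PRKAA1 and PRKAA2, catalytic subunits of AMP-activated kinase, passed with 0.85 (adjusted p = 0.034) and 0.73 (adjusted p = 0.0129), and after it had 0.47 (0.0693) and 0.35 (0.0551). The elongation list had 4 rises and 1 fall as reported, and 3 rises and 1 fall after either GC correction or median-of-ratios scaling, and 2 rises and 1 fall after quantile normalization. The regulators list, with 3 rises as reported, had 2 after median-of-ratios scaling, 3 after quantile normalization and 1 after GC correction.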
